A study of Mus musculus with 24 samples.

Results

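A pair of changes in macrophage gene expression were set side by side: the step from dura libraries marked P5 to those marked P6, and the step from diaphragm libraries 2 and 8 to libraries 3, 6 and 9. These are 11 of the 16 libraries in the count table (3 marked P5, 3 marked P6, and 2 and 3 from diaphragm). The marks P5 and P6 stand in the names of the dura columns. The grouping of the diaphragm numbers is given by no label and was proposed with expression values of these libraries known. The diaphragm step, and the difference between the steps, are therefore descriptions with no test. All macrophages came from wild-type C57BL/6 mice aged 17 weeks at steady state, and were sorted in bulk by flow cytometry after the blood had been flushed out through the heart. The protocol describes the dural preparation only. The labels name macrophage subsets C1, C2 and C3 in both tissues, and no column name ties a library to a subset. A transfer of T cells into RAG-1 deficient mice stands in the series title, and the sample labels do not mention it. Nothing says that libraries came from separate mice, so the p-values measure the spread between libraries, which may be technical.

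Tissue macrophages fall broadly into long-lived resident cells and cells renewed from blood monocytes. Resident cells of many tissues carry the phosphatidylserine receptor Timd4, the hyaluronan receptor Lyve1 and the folate receptor Folr2, and take up debris, iron and lipoproteins. Monocytes enter tissue through the chemokine receptor Ccr2, and their progeny often carry high MHC class II, the molecules that present antigen to CD4 T cells. Marco is a scavenger receptor of only some resident macrophages, among them those of liver and spleen.

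Ccr2 (ENSMUSG00000049103, GRCm38 chromosome 9, 124101950 to 124113557, plus strand) stood at 278, 277 and 251 CPM (counts scaled to a library of 1000000) in P5 libraries 1, 3 and 4, and at 1640, 1460 and 1520 in the P6 libraries. In diaphragm it stood at 129 in both libraries 2 and 8, and at 798, 1030 and 1030 in libraries 3, 6 and 9. The groups did not overlap in either tissue, and the steps were 2.52 ± 0.30 (log2, SE; edgeR adjusted p = 0.00013) in dura and 2.89 in diaphragm. Timd4 (ENSMUSG00000055546, chromosome 11, 46810800 to 46844332, plus strand) went down from 30.2, 40.2 and 46.3 to 0.336, 2.74 and 6.55 CPM in dura, a step of -3.55 ± 0.49 (edgeR adjusted p = 0.000381). In diaphragm it went from 560 and 593 to 39.9, 53.9 and 50.9, a step of -3.58. The fold of Timd4 was close in the tissues while its level was not: the low diaphragm group held about as much as the high dura group. Marco (ENSMUSG00000026390, chromosome 1, 120474538 to 120505024, minus strand) separated them. It stood at 449 and 407 CPM in diaphragm 2 and 8, then at 1.11, 1.61 and 1.77 in libraries 3, 6 and 9, a step of -8.19. In dura it stayed between 0.320 and 2.12 CPM in all 6 libraries, with overlapping groups (0.16 ± 0.83, edgeR adjusted p = 0.925).

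**Figure D1:**
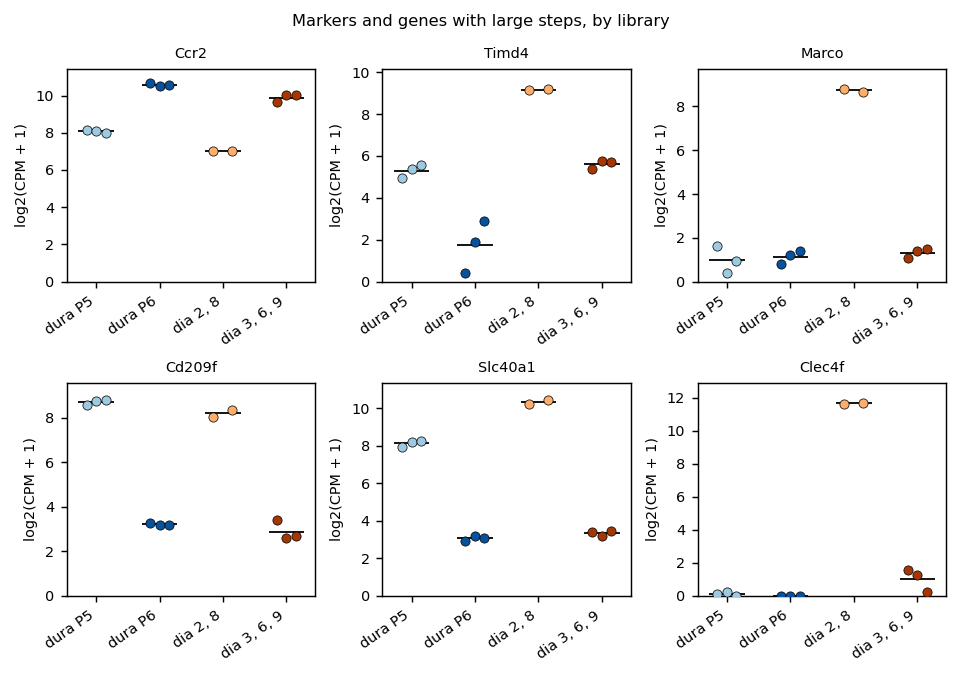
Level of 6 genes in each library, as log2(CPM + 1), for dura P5, dura P6, diaphragm 2 and 8, and diaphragm 3, 6 and 9. Each point is 1 library and each bar a group mean. Ccr2, Timd4, Cd209f and Slc40a1 moved the same way in both tissues, while Marco and Clec4f moved in diaphragm and were near 0 in all dura libraries.

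The sequences just before the start sites of 5 of these genes are printed to set genes that were lower in both tissues (Timd4, Pla2g2d, Ccl8) beside genes that were lower in diaphragm alone by the rule used here (Marco, Cxcl13). Each is the 250 bases upstream of the RefSeq start, on GRCm38.p6, read 5′ to 3′ on the gene's strand. The windows are chr11:46810549-46810798 (plus) for Timd4, chr4:138775485-138775734 (plus) for Pla2g2d, chr11:82114935-82115184 (plus) for Ccl8, chr1:120505025-120505274 (minus) for Marco and chr5:95956689-95956938 (plus) for Cxcl13. Capitals mark matches on either strand to 2 short motifs: the PU.1 core GAGGAA and the MAF core TGCTGA, whose reverse complements are TTCCTC and TCAGCA.
Timd4: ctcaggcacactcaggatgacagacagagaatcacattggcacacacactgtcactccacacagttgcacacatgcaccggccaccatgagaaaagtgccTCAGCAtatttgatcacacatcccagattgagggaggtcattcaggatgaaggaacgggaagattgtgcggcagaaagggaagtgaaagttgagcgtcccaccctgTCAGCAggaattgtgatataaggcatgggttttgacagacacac
Pla2g2d: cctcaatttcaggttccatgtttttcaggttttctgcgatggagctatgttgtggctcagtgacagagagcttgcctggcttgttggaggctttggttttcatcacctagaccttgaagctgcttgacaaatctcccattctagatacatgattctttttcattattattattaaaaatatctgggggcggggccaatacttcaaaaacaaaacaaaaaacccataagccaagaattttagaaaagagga
Ccl8: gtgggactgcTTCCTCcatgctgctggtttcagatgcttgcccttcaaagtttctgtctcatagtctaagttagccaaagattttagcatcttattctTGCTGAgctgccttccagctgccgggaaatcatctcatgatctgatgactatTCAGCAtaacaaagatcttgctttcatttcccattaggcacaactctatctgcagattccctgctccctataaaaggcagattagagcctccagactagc
Marco: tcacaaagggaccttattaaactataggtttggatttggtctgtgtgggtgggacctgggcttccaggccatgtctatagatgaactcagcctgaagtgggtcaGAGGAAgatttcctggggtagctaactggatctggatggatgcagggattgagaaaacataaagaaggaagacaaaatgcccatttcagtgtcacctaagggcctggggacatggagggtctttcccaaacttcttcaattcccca
Cxcl13: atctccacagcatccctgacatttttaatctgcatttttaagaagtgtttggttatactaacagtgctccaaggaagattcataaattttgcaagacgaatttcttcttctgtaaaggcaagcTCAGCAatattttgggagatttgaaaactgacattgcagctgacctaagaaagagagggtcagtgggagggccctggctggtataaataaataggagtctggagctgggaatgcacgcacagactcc
Over all 32851 such windows of the RefSeq table, 23.3% held the PU.1 core and 16.1% the MAF core. Timd4 had 2 MAF cores, Ccl8 had 2 and a PU.1 core, Marco had a PU.1 core, Cxcl13 had 1 MAF core, and Pla2g2d had no match. No match overlapped another. These are letter matches, and no binding was measured here.

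Across all genes, the dura step was tested with edgeR's quasi-likelihood test on the counts. Of 13239 genes tested, 1083 (8.18%) rose and 1216 (9.18%) fell from P5 to P6 at an adjusted p under 0.05, or 17.4% in all. Most of these genes also lay apart in diaphragm, in the same direction. Of 1082 that rose in dura and were measured in diaphragm, 713 (65.9%) had libraries 3, 6 and 9 all above libraries 2 and 8, 51 had them all below, and 318 overlapped. Of 1197 that fell, 776 (64.8%) had them all below and 38 all above. Over all 12948 genes measured in both tissues, 19% lay all above and 22.6% all below. The dural calls and the diaphragm sides share no library. The diaphragm grouping was proposed with expression values known, however, so this agreement is a description and not an independent test.

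The genes named below were chosen by the size of these steps or from gene lists drawn up with earlier results known, so their values describe and do not test a pattern. To set the tissues beside each other by 1 rule, a gene was said to step where the libraries of its groups did not overlap and its fitted log2 change was at least 1 in size. Groups that do not overlap are easier to find in diaphragm, with 2 libraries against 3, than in dura, with 3 against 3. The counts of the 2 tissues are therefore not equally strict. Of 12948 genes, 594 (4.59%) stepped higher and 686 (5.3%) lower in dura, and 652 (5.04%) stepped higher and 1098 (8.48%) lower in diaphragm. Over the 15200 genes measured in diaphragm, 846 (5.57%) stepped higher and 1377 (9.06%) lower, the latter 2316 without diaphragm library 2. In both tissues, 263 genes (2.03%) stepped higher, which is 44.3% of the dural and 40.3% of the diaphragm genes that stepped higher. In both, 280 (2.16%) stepped lower, which is 40.8% of the dural but 25.5% of the diaphragm genes that stepped lower. Opposite steps were found in 33 genes (0.255%). Counts of list genes given below are to be read beside these shares, and beside the 8.18% and 9.18% that rose and fell by the dura test. The pair of genes just inside the rule in both tissues were Arsb (1.001 in dura, 1.358 in diaphragm) and Dlc1 (-1.002 and -1.514), and those just outside it were Hdac9 (-0.9953 and -1.155) and Cxcr3 (-0.9974 and -1.449). A step in 1 tissue only did not mean that the sizes were far apart. Of 308 genes that stepped higher in dura only, 47.4% had steps within 1 log2 unit of each other, and the share was 31.1% of the 795 that stepped lower in diaphragm only. Of the 2454 genes that stepped in either tissue, the dura step lay at least 1 log2 unit above the diaphragm step in 831 and at least 1 below it in 465. The dural counts of higher and lower calls were 682 and 796 without P5 library 3, and 686 and 869 without P5 library 4. Opposite steps numbered 51, 55, 56 and 58 without P5 library 1, P5 library 4, P6 library 3 and P6 library 4, and 55, 58 and 54 without diaphragm library 2, 8 and 9. Groups with fewer libraries overlap less often, so counts of steps tend to rise whichever library is left out. Such rises do not single out a library. Without P6 library 3, 741 genes had a dura step at least 1 below the diaphragm step.

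**Figure D2:**
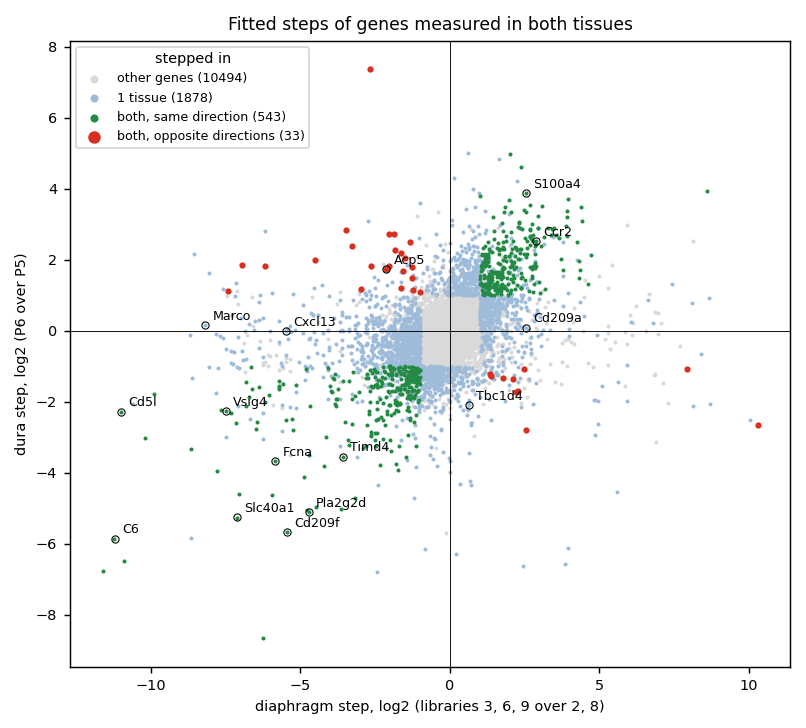
Dura step (vertical axis, log2 of P6 over P5) against diaphragm step (horizontal axis, log2 of libraries 3, 6 and 9 over 2 and 8) for the 12948 genes measured in both tissues. Each point is 1 gene, coloured by where it stepped: the 543 that stepped the same way in both (green) lie in the upper right and lower left, and the 33 with opposite steps are red. The lower left arm reaches further along the diaphragm axis, past Vsig4, Cd5l and C6.

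Resident macrophage genes fell in dura and were lower in diaphragm. Of 28 genes of the LYVE1-type resident list, 27 fell and 1 rose in dura, and 21 stepped lower and none higher in diaphragm. All 21 had stepped lower in dura as well. The median step of the list was -1.97 in dura and -1.38 in diaphragm, against -0.00113 and -0.0307 over all genes. The summed list stood at 21400 to 26500 CPM in P5 and 8920 to 9610 in P6, and at 20300 to 20700 CPM in diaphragm 2 and 8, then 7750 to 8900 in libraries 3, 6 and 9. Fewer cells of a type and less RNA per cell cannot be told apart in bulk libraries.

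Of the C-type lectins related to DC-SIGN, which bind sugars on microbes, Cd209f (ENSMUSG00000051906, chromosome 8, 4102787 to 4105835, minus strand) had the largest shared fall by the smaller of its steps. It stood at 382, 427 and 439 CPM in P5 and 8.57, 7.90 and 8.03 in P6, a step of -5.67 ± 0.11 (edgeR adjusted p = 3.41e-11). In diaphragm it stood at 263 and 328 against 9.41, 4.94 and 5.41, a step of -5.44. The levels differed 50.9-fold in dura and 43.5-fold in diaphragm, with no overlap of the groups. Its neighbour Cd209g had steps of -5.05 and -4.78, and Cd209b of -4.70 and -3.18. These genes are near copies of each other, and reads shared between them are uncertain. The related Cd209a did not follow them: it stayed at 61.5 to 62.7 CPM in P5 and 51.4 to 81.9 in P6, and was higher in diaphragm (44.3 and 54.2 against 291, 335 and 235).

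Lyve1 itself stood at 80.4, 89.8 and 132 CPM in P5 and at 4.87, 5.95 and 14.5 in P6 (-3.56 ± 0.33, edgeR adjusted p = 1.76e-05). In diaphragm it went from 783 and 849 to 312, 227 and 345, a step of -1.47. Its diaphragm groups were apart, and the lower group still stood above every dura library marked P5. Folr2 had closer steps, -2.85 ± 0.16 in dura and -2.64 in diaphragm. Cd163, the receptor for haemoglobin bound to haptoglobin, had -2.94 and -1.39. Igf1, a growth factor made by resident macrophages, had -2.04 and -1.84, and Gas6, which bridges dying cells to the receptor Mertk, -1.58 and -1.37. Mertk had steps of -0.85 and -1.83.

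The transcription factor Maf, which acts in resident macrophages, was lower in both tissues. It stood at 1430, 1630 and 1380 CPM in P5 and 637, 724 and 728 in P6 (-1.09 ± 0.10, edgeR adjusted p = 1.14e-05), and at 818 and 890 against 376, 291 and 486 in diaphragm (-1.15). Tfec, of the MITF family, had steps of -2.43 and -2.29, and Spic, which directs iron-recycling macrophages, of -1.41 and -2.30. Runx3 was higher in both, by 1.47 ± 0.16 and 1.71. Of 33 lineage transcription factors, 5 rose and 9 fell in dura, 3 stepped higher and 7 lower in diaphragm, and 1 stepped higher and 3 lower in both. Over all genes these shares were 8.18% and 9.18%, 5.04% and 8.48%, and 2.03% and 2.16%.

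Iron and heme genes went down in both tissues, with none up. Of 15 tested, 11 fell in dura and 8 stepped lower in diaphragm, 6 of them in both. Slc40a1 (chromosome 1, 45908068 to 45926523, minus strand), or ferroportin, the exporter that returns iron to plasma, stood at 248, 299 and 302 CPM in P5 and 6.64, 8.06 and 7.36 in P6 (-5.26 ± 0.13, edgeR adjusted p = 3.33e-10). In diaphragm it stood at 1200 and 1380 against 9.41, 8.16 and 10.1, a step of -7.12. The lower groups of the 2 tissues reached nearly the same level, and the higher groups did not. Hmox1, which degrades heme, had steps of -0.59 and -1.31, the biliverdin reductase Blvrb -1.14 and -1.46, and the copper ferroxidase Cp -1.91 and -2.35. The ferritin gene Fth1 had 0.17 ± 0.09 in dura (edgeR adjusted p = 0.216) and -0.03 in diaphragm. Its dural adjusted p by edgeR was 0.035 without P5 library 1, and 0.00196 with the library number as replicate block.

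Complement genes differed by component. The classical pathway components C4b and C2 were lower in both tissues. C4b stood at 393, 571 and 638 CPM in P5 and 40.3, 54.1 and 47.7 in P6 (-3.50 ± 0.18, edgeR adjusted p = 1.52e-07), and at 844 and 951 against 28, 20.4 and 54.2 in diaphragm (-4.70). C2 had steps of -3.81 and -4.22. Cd55, which dismantles the convertases, had -4.98 and -4.48. The C1q chains had smaller steps: C1qa had -0.22 and -0.56, and C1qb 0.01 and -0.41. C3, and Cfb of the alternative pathway, passed no test in dura (-0.01, edgeR adjusted p = 0.985, and -0.73, adjusted p = 0.525) and stepped lower in diaphragm (-2.14 and -2.26). Of the whole list of 18, 1 gene rose and 10 fell in dura (8.18% and 9.18% over all genes). In diaphragm 1 stepped higher and 8 lower (5.04% and 8.48% over all genes).

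Secreted products of the same groups included the phospholipase Pla2g2d, the chemokine Ccl8 and the lectin Fcna. Pla2g2d stood at 571, 639 and 600 CPM in P5 and 19.2, 20.1 and 13 in P6 (-5.11 ± 0.15, edgeR adjusted p = 1.77e-09), and at 722 and 714 against 31.1, 6.55 and 41.6 in diaphragm (-4.73). In the libraries outside the steps it stood at 892 to 949 CPM in dura marked P4 but at 116 and 130 in diaphragm 1 and 7. Ccl8 went from 417, 443 and 352 to 27.7, 23.2 and 18.5 in dura (-4.13 ± 0.17) and from 155 and 164 to 3.37, 7.15 and 6.18 in diaphragm (-4.88). Of 21 chemokine genes, 5 rose and 6 fell in dura (8.18% and 9.18% over all genes). In diaphragm 3 stepped higher and 4 lower (5.04% and 8.48% over all genes), with 3 lower in both (Ccl7, Ccl8 and Ccl24). Cd38, an ectoenzyme that consumes NAD, had steps of -4.63 and -5.95.

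The coreceptor Cd4, named after its values were seen, also fell. It stood at 174, 230 and 221 CPM in P5 and 33.8, 45.3 and 30.6 in P6 (-2.51 ± 0.16, edgeR adjusted p = 7.74e-07), and at 137 and 134 against 32.9, 26.3 and 26.9 in diaphragm (-2.24). The T cell gene Cd3e was at 0 to 1.26 CPM in all 11 libraries. The T and NK cell list was mixed: of 12 genes measured in diaphragm, 2 stepped higher and 3 lower (5.57% and 9.06% over all genes). Among the higher members, the adhesion receptor Cd2 had means of 14 and 62.5 CPM in the diaphragm groups (2.16). The interleukin 7 receptor Il7r rose in dura (2.64, edgeR adjusted p = 0.0212) and stepped by 2.67 in diaphragm. The dural call of Il7r ended without P5 library 3 or 4 or P6 library 1 (edgeR adjusted p = 0.0835, 0.0904 and 0.1). Their part in the results was not tested.

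Classical monocyte genes were higher in both tissues. Of 24 genes of the Ccr2 and classical monocyte list, 15 rose and 1 fell in dura, 15 stepped higher and 3 lower in diaphragm, and 13 stepped higher in both. Nonclassical monocyte genes were mixed: of 11, 1 rose and 2 fell in dura, and 2 stepped higher and 4 lower in diaphragm. The shares over all genes were 8.18% and 9.18% in dura, and 5.04% and 8.48% in diaphragm. Summed, the classical list stood at 897 to 1150 CPM in P5 and 3020 to 3350 in P6, and at 1960 to 2160 against 5840 to 6530 in diaphragm. S100a4, a calcium-binding protein of motile cells, stood at 11.5, 9.43 and 7 CPM in P5 and 145, 119 and 141 in P6 (3.88 ± 0.29, edgeR adjusted p = 2.82e-06). In diaphragm it stood at 86.2 and 61.6 against 468, 428 and 406 (2.55). The higher dura group of S100a4 lay below the higher diaphragm group and above the lower one.

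The other genes highest in both were of mixed roles. Lsp1, an actin-binding protein of leukocytes, went from 59.5, 59.2 and 50.1 to 351, 351 and 325 CPM in dura (2.61 ± 0.11, edgeR adjusted p = 3e-08) and from 135 and 102 to 801, 865 and 658 in diaphragm (2.71). Alcam, an adhesion molecule, had steps of 2.64 and 3.15, the peptidase Dpp4 2.90 and 2.95, the protease Napsa 2.89 and 3.49, the metalloprotease Adam8 2.89 and 3.28 and the NF-kappaB inhibitor Tnip3 2.87 and 2.66. The lectin-like receptor Klrb1b and the orphan receptor Gpr141 stood first by the smaller of their steps, with 3.38 and 3.93 for Klrb1b and 3.51 and 3.08 for Gpr141. These genes parted in libraries outside the steps: Klrb1b was at 0 in diaphragm libraries 1 and 7, while Dpp4 was at 42.1 and 44.4 CPM there, as high as in libraries 3, 6 and 9 (41.6 to 44.4).

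MHC class II genes were higher in both tissues. Of 14, 9 rose in dura and 1 fell, and 8 stepped higher in diaphragm. The median step was 0.65 in dura and 1.04 in diaphragm. Larger steps included those of the peptide-loading gene H2-DMb2 (1.53 and 1.76) and of H2-Ob (1.16 and 1.5). H2-Oa had 1.48 in dura, which did not pass the test (edgeR adjusted p = 0.174), and 2.39 in diaphragm. H2-Ab1, a chain of the antigen-presenting molecule, stood at 10300, 10500 and 9730 CPM in P5 and 15600, 16000 and 15000 in P6 (0.61 ± 0.06, edgeR adjusted p = 2.34e-05), and at 8380 and 8110 against 17800, 17400 and 16800 in diaphragm (1.07). The groups were apart in each tissue, and the levels differed 1.53-fold and 2.1-fold. The gene that fell was the costimulator Cd86 (-0.81 in dura, -0.63 in diaphragm). In the libraries outside the steps the summed list stood at 5710 to 6570 CPM (dura P4) and 2140 and 2500 (diaphragm 1 and 7), far below the 43200 to 90700 of the 11 libraries in the steps.

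**Figure D3:**
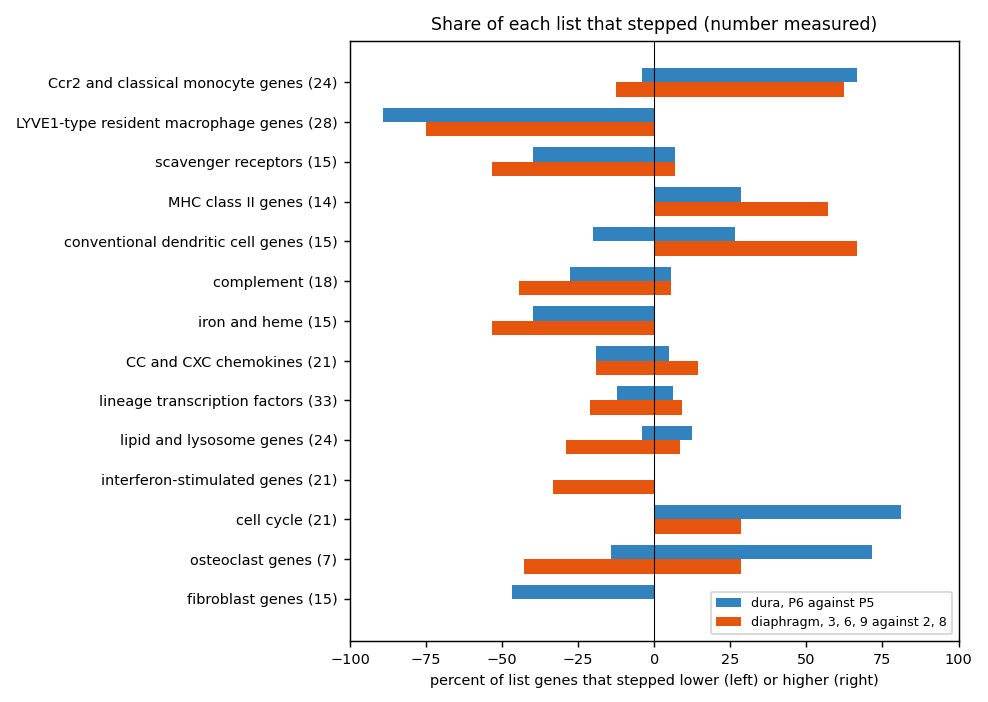
Share of each gene list, in percent of its genes measured in both tissues (number in brackets), that stepped higher (right of 0) or lower (left of 0) in dura (blue) and in diaphragm (orange). Resident, iron and classical monocyte lists went the same way in both, the cell cycle list stepped mostly in dura (17 against 6 of 21 genes), and the interferon list stepped in diaphragm only (7 of 21 genes).

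Cell cycle genes rose in dura, where 20 of 21 passed the test, and most were also higher in diaphragm, by less. In diaphragm, 14 of 21 had libraries 3, 6 and 9 all above 2 and 8, none had them all below, and the summed list stood at 944 to 1020 against 1340 to 1480 CPM. By the rule of a step of at least 1, 17 stepped higher in dura and 6 in diaphragm, all 6 in both. The median step was 1.55 in dura and 0.47 in diaphragm. Top2a, the topoisomerase of dividing cells, stood at 15.2, 24.7 and 22.6 CPM in P5 and 83.0, 87.9 and 83.5 in P6 (2.02 ± 0.26, edgeR adjusted p = 0.000226), and at 51.8 and 28.8 against 105, 79.1 and 89.2 in diaphragm (1.18). The higher groups reached like levels, and the dural group began lower. The mitotic cyclin Ccnb1 showed the widest gap of the list, 3 ± 0.57 in dura (edgeR adjusted p = 0.00336) against 0.07 in diaphragm, where its groups overlapped. The difference between the tissues was not tested here or for any gene below.

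Most genes of bone-resorbing cells rose in dura, and part of them were lower in diaphragm. Of 7 osteoclast genes tested, 5 rose and 1 fell in dura (8.18% and 9.18% over all genes). In diaphragm 2 stepped higher and 3 lower (5.04% and 8.48% over all genes). Acp5 (chromosome 9, 22126727 to 22135711, minus strand), the tartrate-resistant acid phosphatase, stood at 54.7, 57.9 and 55.8 CPM in P5 and 172, 219 and 167 in P6 (1.73 ± 0.20, edgeR adjusted p = 9.74e-05). In diaphragm it went the other way, from 324 and 375 to 56.0, 77.6 and 106 (-2.13). Neither pair of groups overlapped. Atp6v0d2, a proton pump subunit, had steps of 1.48 ± 0.29 and -1.26. Ctsk, the collagen-degrading cathepsin K, went from 8.22, 13.7 and 12.4 to 117, 139 and 84.8 CPM in dura (3.30 ± 0.24, edgeR adjusted p = 2.66e-06), and in diaphragm was at 2.09 and 3.60 against 2.45, 30.6 and 1.41, which overlapped and rested on library 6. The fusion genes Dcstamp and Ocstamp stepped higher in both tissues (4.98 and 1.99, and 2.91 and 2.26), from P5 means of only 0.191 and 0.705 CPM. Without P5 library 4 the call of Ocstamp ended (edgeR adjusted p = 0.0501). Mmp9, a gelatinase, was lower in both (-1.72 and -3.05). With its P5 mean of 702 CPM it made up most of the summed list, which stood at 729 to 1050 CPM in P5 and 679 to 760 in P6.

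Other genes named for opposite moves were higher in P6 and lower in diaphragm 3, 6 and 9. Fcgr4, an activating receptor for IgG, stood at 128, 119 and 93.3 CPM in P5 and 181, 202 and 184 in P6 (0.74 ± 0.13, edgeR adjusted p = 0.00224), and at 245 and 194 against 66.4, 91.3 and 111 in diaphragm (-1.29). Cadm1, an adhesion molecule, had steps of 1.10 ± 0.13 and -1.02, the G protein subunit Gngt2 0.89 ± 0.16 and -1.66, and the glycogen phosphorylase Pygl 0.92 ± 0.16 and -1.18. Tbc1d4, a regulator of glucose transporter traffic, went the reverse way. It stood at 83.0, 93.4 and 99.7 CPM in P5 and 22.4, 22.5 and 19.4 in P6 (-2.10 ± 0.12, edgeR adjusted p = 2.88e-07), and at 57.5 and 46.9 against 74.6, 89.8 and 80.7 in diaphragm (0.65). Its groups were apart in both tissues.

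**Figure D4:**
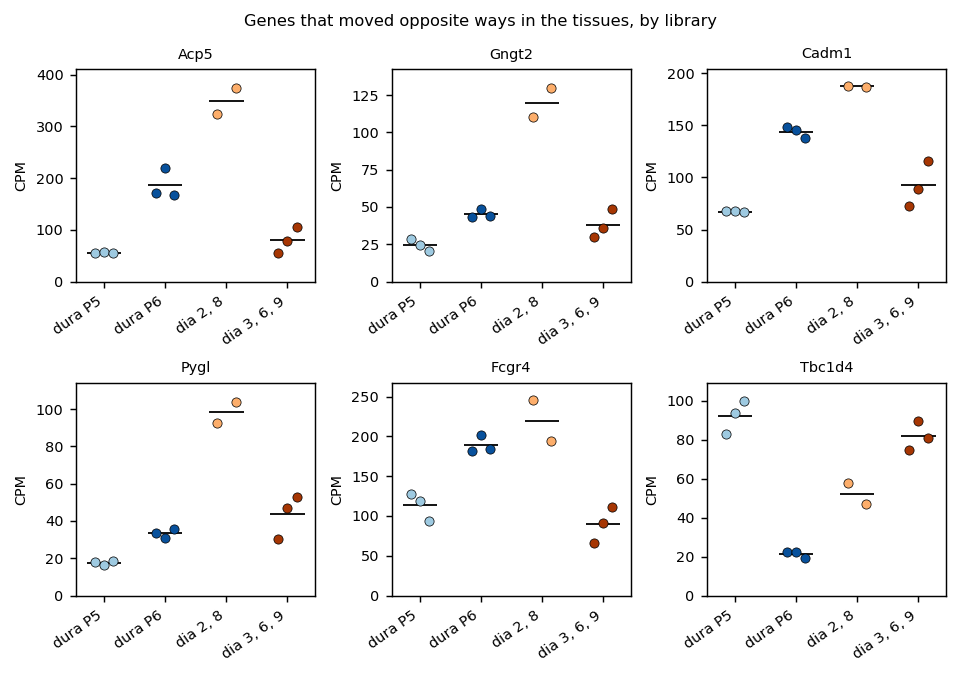
Level in CPM, on a linear axis from 0, of 6 genes in each library of the 4 groups. Points are libraries and bars are group means. Acp5, Gngt2, Cadm1, Pygl and Fcgr4 were higher in dura P6 than in P5 and lower in diaphragm 3, 6 and 9 than in 2 and 8, and Tbc1d4 the reverse.

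Among genes that moved in dura while diaphragm did not follow, Dock5, an activator of Rac, stood at 1.69, 5.11 and 5.39 CPM in P5 and 20, 22.9 and 22.9 in P6 (2.4 ± 0.34, edgeR adjusted p = 0.000442). Its diaphragm libraries overlapped, at 22.2 and 23.8 against 12.4, 24.2 and 18.9. Slc15a2, a peptide transporter, fell from 109, 132 and 134 to 22.9, 29.3 and 25.8 (-2.26 ± 0.12, edgeR adjusted p = 1.78e-07) and overlapped in diaphragm (-0.34). Mfsd6, a membrane transporter-like protein, had -1.94 ± 0.28 in dura and -0.03 in diaphragm. The imprinted neighbours Igf2 and H19 fell in dura (-1.17 ± 0.26 and -1.27 ± 0.12, edgeR adjusted p = 0.00891 and 2.63e-05) and had overlapping libraries in diaphragm. Cavin1, a coat protein of caveolae, fell from 100, 80.9 and 60.1 to 32.9, 53.1 and 38.3 CPM in dura (-0.95 ± 0.22, edgeR adjusted p = 0.0121) and lay higher in diaphragm, at 44.4 and 48.9 against 116, 56.3 and 93.9 (0.93). Its dural call ended without P5 library 1 or P6 library 4 (edgeR adjusted p = 0.0501 and 0.0522). Genes of fibroblasts moved with these falls: 10 of 15 fell and 1 rose in dura (9.18% and 8.18% over all genes). The summed list stood at 1320 to 1610 CPM in P5 and 835 to 1190 in P6, while in diaphragm its ranges overlapped (1060 to 1620 against 1000 to 1800). The part of fibroblast genes in the result was not tested.

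Some genes stepped in diaphragm with no call in dura, and are named here among those with at least 20 CPM in the higher diaphragm and 5 CPM in the higher dura group. The lowest was Cxcl13, the chemokine that draws B cells. It stood at 983 and 1160 CPM in diaphragm 2 and 8, and 13, 25.8 and 34.1 in libraries 3, 6 and 9, a step of -5.47. In dura it stood at 25.6, 11.5 and 13 in P5 and 14.9, 19.1 and 15.5 in P6 (-0.01 ± 0.32, edgeR adjusted p = 0.986). All 6 dura libraries were in or near the range of the lower diaphragm group. Cdh5, a cadherin of endothelium and of liver macrophages, had a diaphragm step of -4.67, the kinase Dmpk -4.51, the membrane protein Gpm6b -4.48, Dmwd, the neighbour of Dmpk, -4.04 and the phosphodiesterase family gene Enpp5 -3.36. None of these 5 passed the test in dura, where their steps lay between -0.995 and 0.395. Cdh5 did without P6 library 3 (-2.17, edgeR adjusted p = 0.0125) and with no filter on low counts (adjusted p = 0.0015). Other markers were lower in the same diaphragm libraries. Of 12 endothelial genes 5 stepped lower and none higher, and their sum stood at 640 to 743 against 151 to 303 CPM. Of 10 B and plasma cell genes 7 stepped lower and none higher, and their sum stood at 511 to 646 against 280 to 423 CPM. Their part in the diaphragm steps was not tested.

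A list of 13 genes known from Kupffer cells, the macrophages of liver, was drawn up after these values were seen. All 13 had diaphragm libraries 3, 6 and 9 below libraries 2 and 8, and summed they stood at 9720 to 10300 CPM in diaphragm 2 and 8, and at 71.9 to 91.1 in libraries 3, 6 and 9. Clec4f, a lectin that defines Kupffer cells (chromosome 6, 83644542 to 83656187, minus strand), stood at 3220 and 3310 CPM in diaphragm 2 and 8, and at 1.96, 1.41 and 0.182 in libraries 3, 6 and 9. It was at 0 in the 3 P6 libraries and at 0 to 0.160 CPM in P5. Cd5l, a lipid-binding protein secreted by macrophages, stood at 3730 and 3160 against 1.48, 0.705 and 2.46 in diaphragm, and at no more than 2.80 CPM in P5 and P6. Vsig4, a complement receptor, stood at 1060 and 997 against 2.30, 6.05 and 9.09. In dura it fell from a mean of 1.4 CPM in P5 to 0.279 in P6 (-2.26, edgeR adjusted p = 0.0388). That call ended with limma-voom, with only P5 and P6 libraries fitted, and without P5 library 3 or 4 or P6 library 1 or 3. The complement protein C6 stood at 287 and 302 against 0.222, 0 and 0.0455, and fell in dura too, from 7.54, 8.15 and 7.70 to 0, 0.235 and 0.135. Libraries 1 and 7, outside the steps, held an intermediate 2050 and 3680 CPM of the summed list. The summed level of hepatocyte genes overlapped between the groups, at 405 to 728 CPM in diaphragm 2 and 8, and 251 to 683 in libraries 3, 6 and 9. A list of 12 large peritoneal macrophage genes was also lower in sum. It stood at 3540 to 4020 CPM in diaphragm 2 and 8, and 1300 to 1820 in libraries 3, 6 and 9. Of these genes, 4 stepped lower and 1, Fn1, higher. Cd5l is on this list too and made up most of its sum in diaphragm 2 and 8, with a mean of 3450 CPM. In libraries 3, 6 and 9 most of the sum was Fn1, with a mean of 1600 CPM. The lower sum of the list therefore rested on Cd5l. In dura the list stood at 25.8 to 70.5 CPM in P5 and 64.8 to 78.5 in P6.

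**Figure D5:**
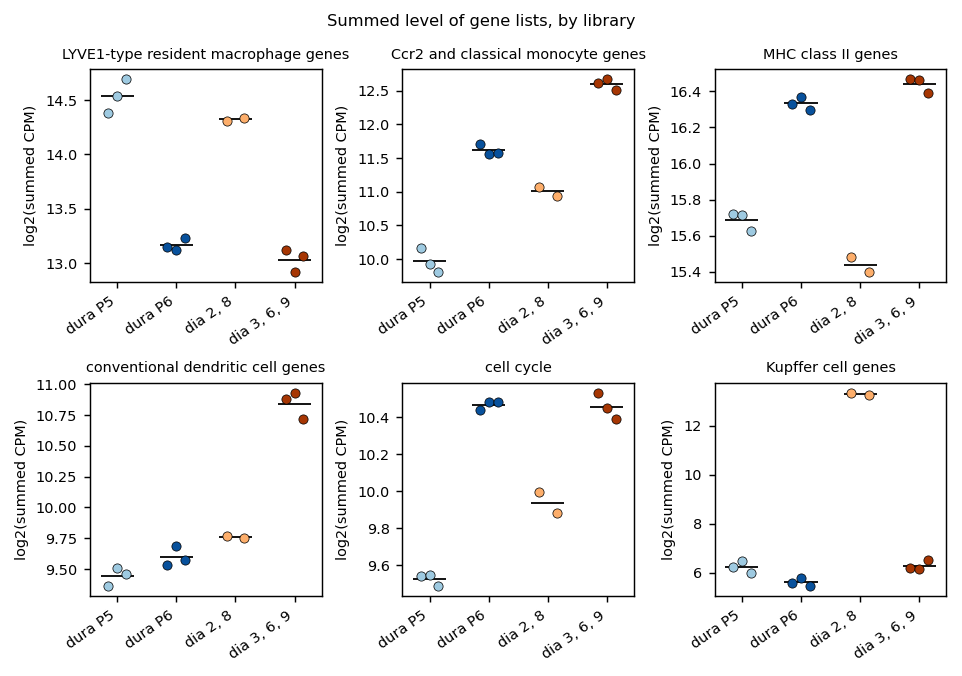
Summed level of 6 gene lists in each library, as log2 of the summed CPM, with a separate vertical scale for each list. Points are libraries and bars are means of the plotted values. The resident and classical monocyte lists moved the same way in both tissues, while the Kupffer cell list, chosen after its values were seen, was far higher in diaphragm libraries 2 and 8 than in the other groups plotted.

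Timd4 and Slc40a1, lower in both tissues, are also known from Kupffer cells, and the diaphragm steps of resident genes stand beside this change in the Kupffer list. The part of the Kupffer genes, or of peritoneal macrophages, in those steps was not tested. In dura the resident genes fell with the summed Kupffer list at 63.0 to 89.0 CPM in P5 and 44.3 to 55.5 in P6. With the genes of the Kupffer, dendritic cell and other-cell lists left out, an alternative chosen after seeing the data, 256 genes stepped higher and 275 lower in both tissues. With them the counts were 263 and 280. Timd4 and Slc40a1 are not among the 13 genes of the Kupffer list. Leaving out listed genes cannot show the part of the cells that carry them, because other genes of those cells stay in.

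Interferon-stimulated genes stepped in diaphragm only, all lower. Of 21, 7 stepped lower in diaphragm (8.48% over all genes), and in dura 1 rose and none fell (8.18% and 9.18% over all genes). Irf7, a factor that amplifies type I interferon, stood at 459 and 414 CPM in diaphragm 2 and 8, and 57.9, 85.0 and 93.2 in libraries 3, 6 and 9 (-2.47), and overlapped in dura (110, 134 and 100 against 125, 178 and 139). With no filter on low counts edgeR called Irf7 in dura (0.348, adjusted p = 0.0259). It also did so with the library number as replicate block (0.358, edgeR adjusted p = 0.0273). The list did not move as a whole: Ifit1, Isg15, Mx1 and Cxcl10 lay higher in diaphragm 3, 6 and 9, by 0.66 to 0.88. Lipid and lysosome genes were mixed. Of 24, 8 rose and 7 fell in dura (8.18% and 9.18% over all genes). In diaphragm 2 stepped higher and 7 lower (5.04% and 8.48% over all genes). The proteases Ctsb and Ctsd were lower in both tissues (-0.73 and -1.36, -0.64 and -1.57), as was the lipid carrier Apoe (-0.49 and -1.31). The protease Ctss rose in dura (0.66, edgeR adjusted p = 0.000248) and overlapped in diaphragm (-0.11).

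At the same limits, the highest diaphragm step with no call in dura was that of Aldh1a2, which makes retinoic acid. It stood at 12.5 in both libraries 2 and 8 and at 85.9, 81.1 and 77.6 CPM in libraries 3, 6 and 9 (2.71), and at 16.6, 15.4 and 10.1 against 9.32, 11.7 and 6.07 in dura (-0.63 ± 0.33, edgeR adjusted p = 0.231). Fn1, fibronectin, went from 224 and 316 to 1790, 1750 and 1270 CPM in diaphragm (2.57) and overlapped in dura (0.59 ± 0.55, edgeR adjusted p = 0.537). The matrix protein Spp1 had a diaphragm step of 2.33 and the calcium pumps Atp2b4 and Atp2a3 of 2.65 and 2.39. The calcium pumps were at 0.92 ± 0.43 and 1.00 ± 0.58 in dura, which did not pass the test (edgeR adjusted p = 0.181 and 0.282). Without P5 library 1 both did (edgeR adjusted p = 0.0423 and 0.00248). With no filter on low counts, edgeR also called Aldh1a2 (adjusted p = 0.023), Fn1 (0.000135) and Atp2a3 (3.67e-05) in dura.

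Dendritic cell genes moved with these. Of 15 conventional dendritic cell genes measured in both tissues, 10 stepped higher in diaphragm and none lower, and in dura 5 rose and 3 fell, with 4 higher in both. Summed, the list of 18 stood at 861 to 872 CPM in diaphragm 2 and 8, and 1680 to 1950 in libraries 3, 6 and 9, and at 659 to 728 in P5 and 743 to 826 in P6. Ccr7, which guides cells to lymph nodes, stood at 43.0 and 20.5 CPM in diaphragm 2 and 8, and 240, 286 and 208 in libraries 3, 6 and 9, and was at most 9.99 in dura. Flt3, the growth factor receptor that marks the lineage, was higher in both, from 1.78, 1.60 and 1.65 to 8.32, 10.7 and 12.9 CPM in dura (2.66 ± 0.49, edgeR adjusted p = 0.00277) and from 3.15 and 2.14 to 40.8, 50.6 and 29.9 in diaphragm. Zbtb46, a factor of the same lineage, fell in dura (-1.66 ± 0.35, edgeR adjusted p = 0.00612) and was at -0.39 in diaphragm. The part of dendritic cells in these steps was not tested.

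Macrophage identity genes were present in all 11 libraries: Csf1r stood at 3160 to 6460 CPM, Adgre1, which encodes F4/80, at 1110 to 2140, and Cd68 at 597 to 853. Their levels were not constant. Steps in dura and diaphragm were -0.485 and -0.603 for Csf1r, -0.175 and -0.58 for Adgre1, and 0.101 and -0.477 for Cd68. The identity genes Fcgr1, Mertk and Itgam had -0.111 and -0.791, -0.853 and -1.83, and 0.238 and 0.614. The libraries of the steps held 11053351 to 30132295 counts, and the 10 most abundant genes took 10.8% to 14.4% of them. Diaphragm library 6 came from 1 column and the other 4 diaphragm libraries each from 2 columns that agreed within or near sampling noise. Liver genes summed to 3000 CPM in 1 P6 library and 12.8 CPM in the lowest, and in dura this was Ttr, the carrier of thyroxine: its means were 97.9 CPM in P5 and 1010 in P6, and those of the other 9 genes of the list at most 0.357. Mast cell genes stood at 3.15 to 4.60 CPM summed in diaphragm 2 and 8 and 14.2 to 93.2 in libraries 3, 6 and 9, and at 15.4 to 35.3 CPM in P5 and 3.85 to 5.54 in P6. Their part in the results was not tested. Tissue and any batch of the tissues cannot be told apart.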

How the data were processed

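The authors deposited whole-number counts per gene for bulk RNA sequencing of sorted macrophages (41388 genes, 24 columns). The file is named as normalised, but its whole numbers and unequal totals were read as raw counts. Per the submitters' processing notes, STAR 2.4.0j, featureCounts, DESeq2 1.20.0 and GRCm38 were used. No strand setting was stated, so overlapping and antisense genes cannot be told apart. Columns of 1 diaphragm number with and without a prefix differed within or near sampling noise in 6 pairs (chi-square per degree of freedom 1.008 to 1.169, at least 10.56 between other columns) and were summed. A further 2 columns, with 1496 and 2115 counts, were left out.

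Low genes were removed with filterByExpr, CPM used TMM scaling over 16 libraries, and the dura step was fitted on 9 dura libraries with edgeR 4.0.16 (quasi-likelihood test, Benjamini-Hochberg adjustment over all genes, limma 3.58.1 and DESeq2 1.42.0 as alternatives, R 4.3.3). Diaphragm steps are fitted values given without a test. The procedure was checked on simulated data. Named genes were the 3 markers, the 10 highest and 10 lowest shared genes by the smaller step (at least 20 CPM in the higher group of each tissue), 6 higher and 6 lower in each tissue without a like change in the other (at least 20 CPM in the higher group there and 5 CPM in the other tissue), 6 with opposite moves and up to 4 per biology list by step, skipping gene models without a proper symbol. Other genes named, and the Kupffer cell list, were chosen after their values were seen. The members and all lists were chosen with earlier results of these data known. Gene positions are those of GENCODE on GRCm38. Results for some genes are not reported here.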

Additional observations from a re-analysis of the deposited data

Results flagged for a closer look

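A selection of genes stood apart in both tissues with steps in opposite directions: 6 with the largest difference at 20 CPM or more, of 63 genes at that level that passed the dura test and lay apart the other way in diaphragm, and 2 others that the report names. The dura step minus the diaphragm step, on the log2 scale, was 3.86 for Acp5, 2.55 for Gngt2, 2.12 for Cadm1, 2.1 for Pygl, 2.03 for Fcgr4 and -2.75 for Tbc1d4. It was 2.74 for Atp6v0d2 and -1.88 for Cavin1. The genes were picked for this pattern, and the difference was not tested.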

How the results depend on the processing

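The count of diaphragm steps depended on the size asked for. At 0.58 in place of 1 there were 1446 higher and 2086 lower in diaphragm (846 and 1377 at 1), 533 higher and 562 lower in both, 77 opposite, and differences of at least that size in 1536 genes (more in dura) and 969 (less). At 2 these were 356, 665, 67, 67, 7, 308 and 125. With at least 5 CPM in the higher group of each tissue there were 522 higher and 723 lower in diaphragm, 10 opposite, and 319 and 139 by difference. With no filter on low counts, 1446 and 917 differed. Leaving out 1 library gave 682 to 951 higher and 796 to 1098 lower in dura, 846 to 1244 and 1362 to 2316 in diaphragm (the last without diaphragm library 2), 264 to 299 and 289 to 354 in both, 40 to 58 opposite, and 880 to 1121 and 475 to 741 by difference. Counts that rest on groups without overlap tend to rise here by construction, because smaller groups overlap less often. DESeq2 called 1332 higher and 1452 lower in dura, and limma-voom 1259 and 1078. The replicate block gave 1441 and 1615. Same-numbered P5 and P6 libraries deviated together only weakly (correlations 0.0587, 0.225 and 0.0968). Each P5 library correlated best with the P6 library of its number, while P6 library 1 correlated best with P5 library 4 (0.0772). Whether the numbers pair the libraries is not known, and the main fit took them as unpaired. The difference of the steps was followed for the 104 genes of the text tested in dura. A change of sign was counted only for differences of at least 1 in size, and was found for Ttr alone. Ttr ranged from -2.13 (without P6 library 1) to 6.34 (without P5 library 4). Sign changes of smaller differences were not counted. Over these 104 genes and the alternatives, the difference moved by more than the library spread, without a counted change of sign, 7 times. No dura step of these genes changed sign with a call, and calls were gained 21 and lost 13 times, counted over genes and alternatives. Scaling by library totals moved the median difference of the steps to 0.105, from 0.0447. Diaphragm groups of 2 and 3, taken from no label, and genes of a few CPM limit the precision.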
